A study of Mus musculus with 6 samples.

Results

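The genes described here encode the transforming growth factor-beta (TGF-beta), bone morphogenetic protein (BMP) and activin pathways, read in mononuclear cells of skeletal muscle from tumour-bearing mice. They were taken by gene symbol as the TGF-beta, BMP, growth differentiation factor (Gdf) and inhibin-beta ligands, their receptors, the Smads, the latent binding proteins (Ltbp), myostatin, the follistatins, noggin, endoglin and Id1 to Id3. The rule found 57 of the 17030 genes in the table, and it used no measured value. Tgfb1i1 and Bmp2k match by their prefix and are not ligands. Tgfb1i1 is a LIM adaptor of focal adhesions and Bmp2k is a kinase. Grem1 is named in the rule and has no row among the genes used here.

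All 6 mice were male and of strain C57BL/B6, carried IKKbfl/fl alleles, bore Lewis lung carcinoma (LLC) tumours and received tamoxifen on days 10 to 14 after tumour cell injection. IKKb, encoded by Ikbkb, is the kinase that switches on canonical NF-kB signalling. The 3 mice called Pax7-CreERT also carried Pax7 Cre ErT, a tamoxifen-activated recombinase driven by Pax7, the transcription factor of muscle satellite cells, and the 3 controls had no Cre. Values by mouse are given below in the order of replicates 1, 2 and 3, first with Cre and then without. The libraries hold all mononuclear cells, while Pax7 drives Cre only in satellite cells and their progeny. No group carried Cre without the floxed alleles, so Cre and the deletion cannot be told apart. The labels give no age, and replicate numbers only name the mice.

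TGF-beta family ligands are secreted dimers that bring together type II and type I receptor kinases. The type I kinase then phosphorylates a Smad. TGF-beta, activin and myostatin act mainly through Smad2 and Smad3, BMPs through Smad1, Smad5 and Smad9, and both branches share Smad4. In muscle, myostatin and activin A limit fibre size and BMP signalling opposes that limit, while TGF-beta drives matrix production by fibroblasts. In endothelium, Acvrl1, Bmpr2 and endoglin form a receptor complex whose signal turns on the Id genes and the inhibitory Smads, Smad6 and Smad7, which feed back on the pathway.

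The values are CPM, read counts scaled so that every library sums to 1000000. The libraries held an estimated 4054000 to 13355000 reads, so that 1 CPM was 4.05 to 13.4 reads. Control replicate 3 stood apart. It was the shallowest library, and haemoglobin transcripts took 12.6% of its CPM against 1.84% to 4.83% in the other 5. Marker genes of endothelium summed to 4857 to 5917 CPM in the Pax7-CreERT libraries and 4555 to 6299 CPM in the controls, with all 8 detected in every library. Those of pericytes and smooth muscle (9 of 9 detected) summed to 9184 to 11597 and 7225 to 9179 CPM, and those of macrophages (8 of 8) to 343 to 496 and 242 to 800.5 CPM. Satellite cell markers (8 of 8) were low, with sums of 113 to 131 and 101 to 135 CPM. Genes of mature myofibres, which a mononuclear preparation should lack, summed to 1899 to 2688 and 922 to 1543 CPM. Cd3e, Cd3g, Ncr1 and Klrb1c of T and NK cells were at 0 in at least 1 library. In such bulk samples fewer cells of a type and less RNA per cell cannot be told apart. Ikbkb itself measured 51.4, 48.4 and 52.7 CPM with Cre and 51.3, 57.4 and 48.8 CPM without, with a log2 difference of -0.04 (SE 0.13, unadjusted p = 0.739). The table has 1 value per gene, so the floxed exons were not read apart from the rest.

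Start regions of 4 members are printed first, since later values turn on these genes. Smad6 and Id3 stand for the feedback targets, Tgfb2 for the ligands and Ltbp4 for the latent binding proteins. Each runs from 250 bases before the RefSeq start site that equals the gene's start in the deposited table, 5′ to 3′ on the gene's own strand (build GRCm38.p6). For Smad6, Tgfb2 and Ltbp4 the RefSeq gene begins further upstream, at 64022085, 186709697 and 27339720, so the site used is 1 of several. Start regions of 42 of the 57 members were scanned. Capitals mark matches on either strand to the palindromic Smad element GTCTAGAC in Smad6, to the CAGAC core of CAGA boxes in Id3 and Tgfb2, and to an NF-kB-like pattern, GGG and CC with any 5 bases between them, in Ltbp4. The Id3 capitals GTCTG are CAGAC read on the other strand. The Smad6 match spans the start site, with 4 bases before it and 4 after.
Smad6, chr9:64022056-64022309, minus strand: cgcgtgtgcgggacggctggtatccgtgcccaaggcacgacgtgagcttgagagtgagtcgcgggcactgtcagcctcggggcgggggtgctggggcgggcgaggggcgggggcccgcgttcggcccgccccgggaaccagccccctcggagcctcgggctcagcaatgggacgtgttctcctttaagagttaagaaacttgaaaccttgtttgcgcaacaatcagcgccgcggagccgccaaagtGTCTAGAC
Id3, chr4:136143572-136143821, plus strand: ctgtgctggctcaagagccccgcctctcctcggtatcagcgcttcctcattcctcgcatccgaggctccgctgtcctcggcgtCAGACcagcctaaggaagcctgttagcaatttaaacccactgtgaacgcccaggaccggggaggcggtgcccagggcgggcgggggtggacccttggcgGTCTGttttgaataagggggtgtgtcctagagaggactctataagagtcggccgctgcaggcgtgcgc
Tgfb2, chr1:186705990-186706239, minus strand: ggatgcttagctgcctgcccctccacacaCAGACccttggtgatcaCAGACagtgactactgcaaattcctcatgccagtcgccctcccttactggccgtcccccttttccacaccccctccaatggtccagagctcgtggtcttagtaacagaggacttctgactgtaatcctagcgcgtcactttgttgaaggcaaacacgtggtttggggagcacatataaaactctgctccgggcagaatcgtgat
Ltbp4, chr7:27337613-27337862, minus strand: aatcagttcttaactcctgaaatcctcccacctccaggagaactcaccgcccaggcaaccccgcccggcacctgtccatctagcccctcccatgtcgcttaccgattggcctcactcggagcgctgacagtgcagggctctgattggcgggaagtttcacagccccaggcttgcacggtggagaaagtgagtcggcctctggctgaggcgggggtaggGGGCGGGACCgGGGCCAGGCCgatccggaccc
Over all 32851 start regions of 300 bases (250 before the start and 50 after), GTCTAGAC was present in 0.213%, CAGAC in 49.6% and the NF-kB-like pattern in 50.8%. Among the 42 members scanned, GTCTAGAC was found in 1, Smad6. Smad2, Smad4 and Smad7 were among the members left out of the scan. Whether Smad7, the other inhibitory Smad, holds GTCTAGAC was therefore not tested. CAGAC was found in 22 and the NF-kB-like pattern in 30, counting any of their 53 regions. The GC-rich Smad element GGCGCC was found in 11 of them and in 11.9% of all regions. Members were counted by gene, some with several regions, and the shares by single region. The counts and shares are therefore not like for like. The 4 patterns were counted on both strands and apart from each other, so matches may overlap. A match describes letters only. Gene positions given below are those of the deposited table, on mm10 per the submitters' processing notes.

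Levels of different genes were compared per length, as CPM per kb of exon in the GENCODE M21 annotation, with the SD over the 6 libraries. The most abundant tested members were 2 Id genes, Fstl1 and the receptors of the endothelial BMP complex. Id1, an inhibitor of basic helix-loop-helix factors, stood at 385 ± 42.98 CPM per kb and its relative Id3 at 132 ± 22.7. Fstl1, a secreted glycoprotein of mesenchymal cells, stood at 90.5 ± 23.2. Among receptors, the BMP type II receptor gene Bmpr2 stood at 78.1 ± 11.3, the co-receptor endoglin (Eng) at 70.6 ± 12.5 and the type I receptor gene Acvrl1 at 60.7 ± 6.298 CPM per kb. The ranges of these 3 over the libraries overlapped, 68.2 to 96.5 for Bmpr2, 53.7 to 92.6 for Eng and 53.98 to 68.7 for Acvrl1.

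Tgfb3 and Bmp6 led their ligand families on this scale. Tgfb3 stood at 40.4 ± 9.09 CPM per kb, above Tgfb1 at 10.6 ± 0.983 and Tgfb2 at 7.13 ± 1.81, and its lowest library, at 29.9, exceeded the highest of Tgfb1, at 12.3. Bmp6 stood at 50.8 ± 11.8, with its lowest library at 35.5, followed by Bmp4 at 24.9 ± 1.89, whose highest was 27.4, and Bmp5 at 16.5 ± 4.595. Of the activin and myostatin group, Inhbb and Gdf11 stood at 12.1 ± 3.65 and 11.6 ± 1.96 CPM per kb and overlapped. Inhba, the activin A subunit gene, stood at 1.76 ± 0.395, and myostatin (Mstn) at 1.92 ± 0.272. Smad4 led the Smads at 43.95 ± 4.87, and Smad9 was lowest at 0.624 ± 0.242.

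**Figure D1:**
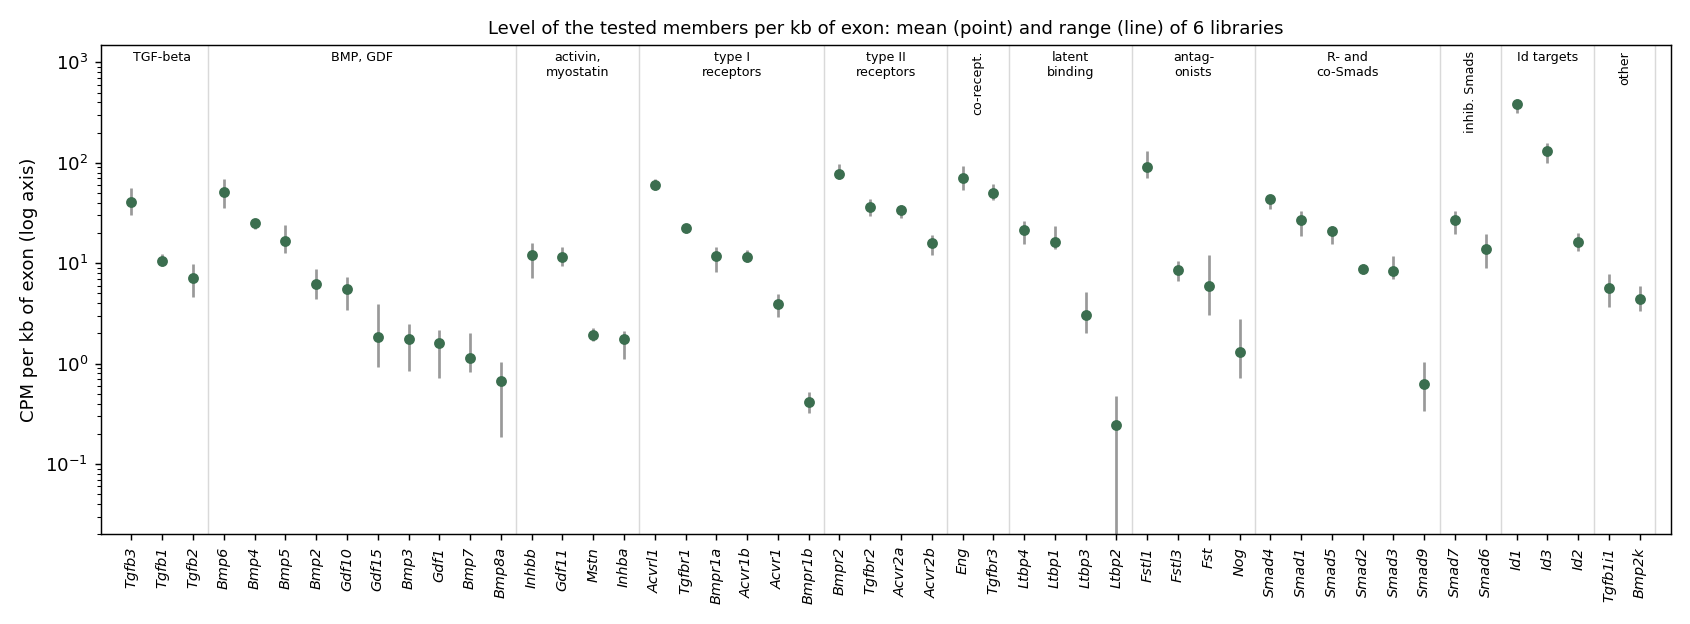
Level of each tested member in CPM per kb of exon on a log axis, by role, with the point as the mean and the line as the range of all 6 libraries (the range of Ltbp2 reaches 0 and runs off the axis). Id1 and Id3 stand highest, and Tgfb3 and Bmp6 stand above the other genes of their ligand families.

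Of the 57 members, 50 had at least 1 CPM in at least 3 libraries and were tested. The other 7, namely Acvr1c, Bmp15, Bmp8b, Gdf6, Gdf7, Gdf9 and Tgfbr3l, reached at most 0.421 CPM (Gdf7) to 1.73 CPM (Acvr1c). The comparison asks how loss of IKKb in Pax7-lineage cells bears on the transcripts of the muscle's mononuclear cells. In limma, 0 of the 50 members passed at an adjusted p under 0.05 over all genes, with adjusted p from 0.891 to 0.999. Over all 14763 genes tested 1 passed, which is 0.00677%, and 0 members passed under any of the 15 alternatives tried. Differences below are therefore given as values, Pax7-CreERT minus control on the scale of log2(CPM + 1).

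At an unadjusted p under 0.05 stood 10 members, or 20% of those tested, against 5.52% of all genes. On the higher side stood 9, against 4.58% of all genes, and on the lower side 1, against 0.942%. The higher ones were the ligand genes Tgfb2, Tgfb3, Bmp2, Gdf11 and Inhba, the latent binding proteins Ltbp2 and Ltbp4, and the follistatin genes Fst and Fstl1, and the lower one was Smad6. The count was 5 without Pax7-CreERT replicate 1 (3.001% of all genes), 3 without replicate 2 (3.34%) and 6 without control replicate 1 (6.92%). It was 14 without control replicate 3 (6.50%). It was 6 with median-ratio scaling, against 4.58% of all genes. Of these, 4 were higher (2.53% of all genes) and 2 lower (2.05%). With Pax7-CreERT replicate 1 and control replicate 3 both left out it was 11 (all genes 4.8%), of which 8 were among the 10. Of the 11, 7 were higher (3.29% of all genes) and 4 lower (1.52%). The groups did not overlap for 9 members, 18% of those tested, against 11.0% of all genes. They were separate with higher values in 8 (8.69% of all genes) and with lower values in 1 (2.28%). In direction, 30 members were higher and 20 lower, or 60% higher, against 68.0% of all genes. With median-ratio scaling these became 25 and 25, against 50.5%. The median difference was 0.09 for the members and 0.09 for all genes.

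**Figure D2:**
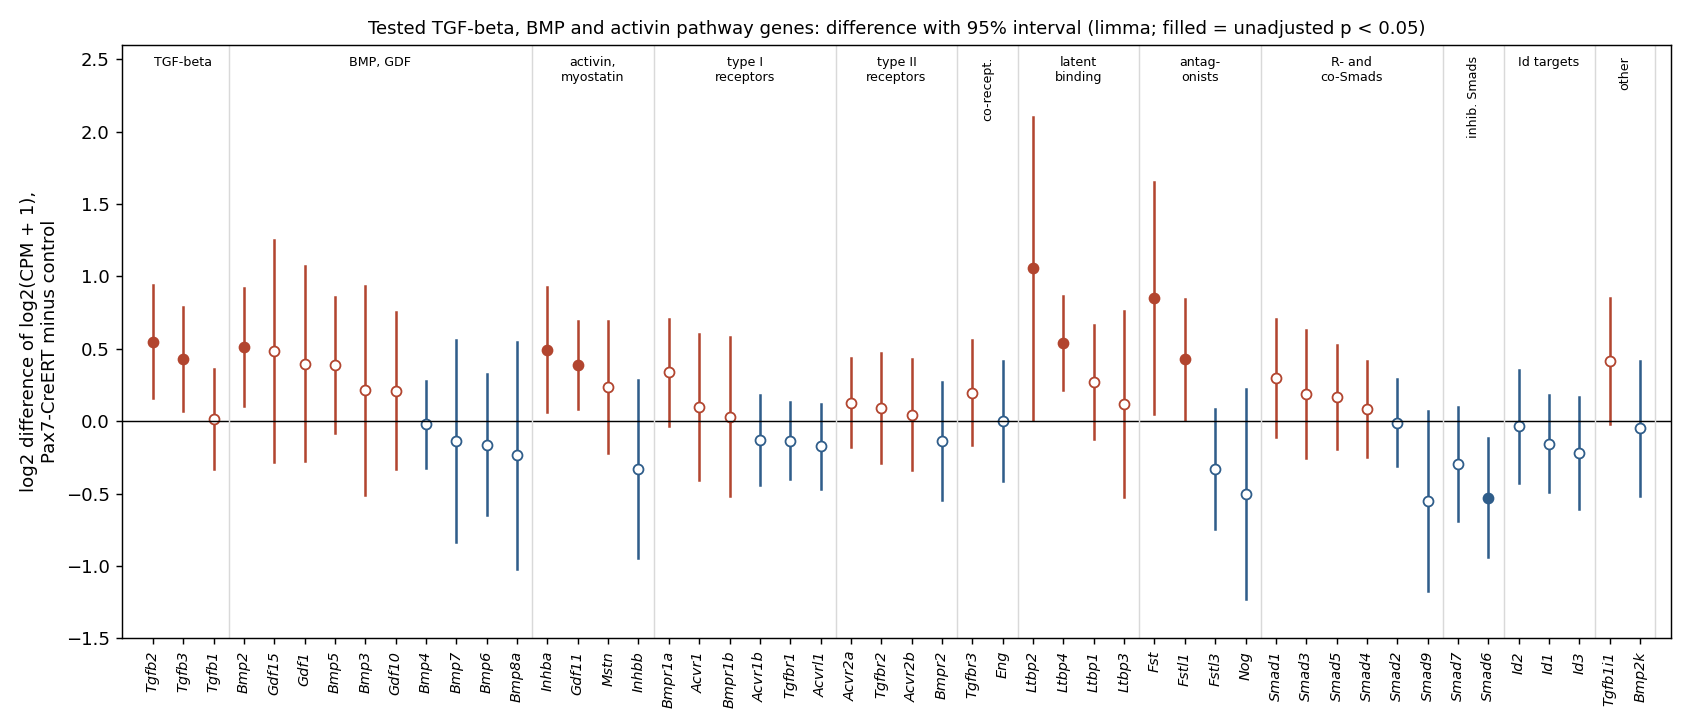
Difference on the log2(CPM + 1) scale (vertical axis, Pax7-CreERT minus control) for the 50 tested members by role, with 95% intervals from limma and filled points where the unadjusted p is under 0.05. The 10 filled points lie among ligands, latent binding proteins, follistatins and inhibitory Smads, and no receptor point is filled.

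Among the TGF-beta ligands, Tgfb2 and Tgfb3 were higher in each Pax7-CreERT mouse than in any control, and Tgfb1 was not. Tgfb2, an isoform important in development of heart and mesenchyme (chromosome 1, 186622792 to 186705989), measured 50.9, 43.8 and 37.9 CPM with Cre and 31.3, 24.1 and 34.5 CPM without. Its means were 44.2 ± 6.52 against 29.97 ± 5.33 CPM (SD, n = 3 each), 1.47-fold, with a log2 difference of 0.55 (SE 0.17, 95% interval 0.16 to 0.94, unadjusted p = 0.0106). The lowest Pax7-CreERT library lay above the highest control, and the 2-sided exact permutation test gave p = 0.1. No comparison of 3 with 3 mice can go lower. Tgfb3 (chromosome 12, 86056743 to 86079041), an isoform known for its role in palate closure, measured 147, 191 and 134 CPM with Cre and 101, 119 and 128 CPM without. Its difference was 0.43 (SE 0.16, 95% interval 0.07 to 0.79, unadjusted p = 0.0245), again without overlap, and replicate 2 was the highest library. Tgfb1, the main isoform of immune cells (chromosome 7, 25687002 to 25705077), measured 26.8, 20.6 and 22.6 CPM with Cre and 23.9, 23.2 and 21.7 CPM without. Its groups overlapped, with a difference of 0.02 (SE 0.15, 95% interval -0.33 to 0.36, unadjusted p = 0.914), and with median-ratio scaling 2 of the 3 ligands had higher values instead of 3. The pericyte and smooth muscle markers, 9 of 9 with higher means, and the myofibre genes, 10 of 10, also had group sums that did not overlap. For the pericyte and smooth muscle sum the gap was narrow, with 9184 CPM in Pax7-CreERT replicate 1 and 9179 CPM in control replicate 2. Rgs5, the largest of these markers, overlapped between the groups. The part of either marker list in the ligand differences was not tested.

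Of 10 tested BMP and Gdf ligands 6 were higher and 4 lower, with a median difference of 0.21. Bmp2, an inducer of bone formation that activates Smad1 and Smad5 (chromosome 2, 133552159 to 133562896), measured 31.3, 26.1 and 21.4 CPM with Cre and 20.4, 18.2 and 15.5 CPM without. The groups did not overlap, though Pax7-CreERT replicate 3 and control replicate 1 lay close, and the difference was 0.51 (SE 0.18, 95% interval 0.10 to 0.92, unadjusted p = 0.0195). Bmp6, which endothelial cells of liver make to control iron through hepcidin, measured 169.9, 157 and 179.7 CPM with Cre and 215, 246 and 128 CPM without. Control replicates 1 and 2 were its highest libraries and control replicate 3 its lowest, and the difference of -0.16 (SE 0.22, unadjusted p = 0.470) became 0.03 without control replicate 2. Bmp5 measured 92.5, 76.3 and 48.8 CPM with Cre and 55.2, 49.4 and 56.0 CPM without. Its 3 controls lay within 49.4 to 56.0 CPM while the Pax7-CreERT mice spread from 48.8 to 92.5, and the difference was 0.39 (SE 0.21, unadjusted p = 0.0963). The other 7 tested genes of this group, among them Bmp4 and the stress-induced cytokine gene Gdf15, had unadjusted p from 0.19 to 0.871.

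The activin and myostatin group gave 3 higher and 1 lower. Inhba, which encodes the subunit of activin A (chromosome 13, 16011851 to 16031609), measured 13.6, 12.7 and 13.6 CPM with Cre and 10.03, 7.14 and 10.6 CPM without. The Pax7-CreERT values were tightly grouped and did not overlap the controls, with means of 13.3 ± 0.547 against 9.26 ± 1.86 CPM (SD, n = 3 each) and a difference of 0.49 (SE 0.19, 95% interval 0.06 to 0.93, unadjusted p = 0.0294). Gdf11, the closest relative of myostatin (chromosome 10, 128880524 to 128891718), measured 49.7, 58.7 and 51.9 CPM with Cre and 37.8, 44.996 and 39.2 CPM without. All Pax7-CreERT libraries were above all controls, and the difference was 0.39 (SE 0.14, 95% interval 0.08 to 0.69, unadjusted p = 0.0183). Mstn, the muscle growth inhibitor made mainly by myofibres, was faint at 6.097, 6.14 and 4.88 CPM with Cre and 4.51, 4.58 and 4.93 CPM without, with a difference of 0.24 (SE 0.21, unadjusted p = 0.278). Inhbb, the subunit of activin B, measured 58.6, 47.5 and 30.1 CPM with Cre and 67.2, 67.1 and 37.5 CPM without. Both groups held high and low libraries, and its difference was -0.33 (SE 0.28, unadjusted p = 0.258).

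**Figure D3:**
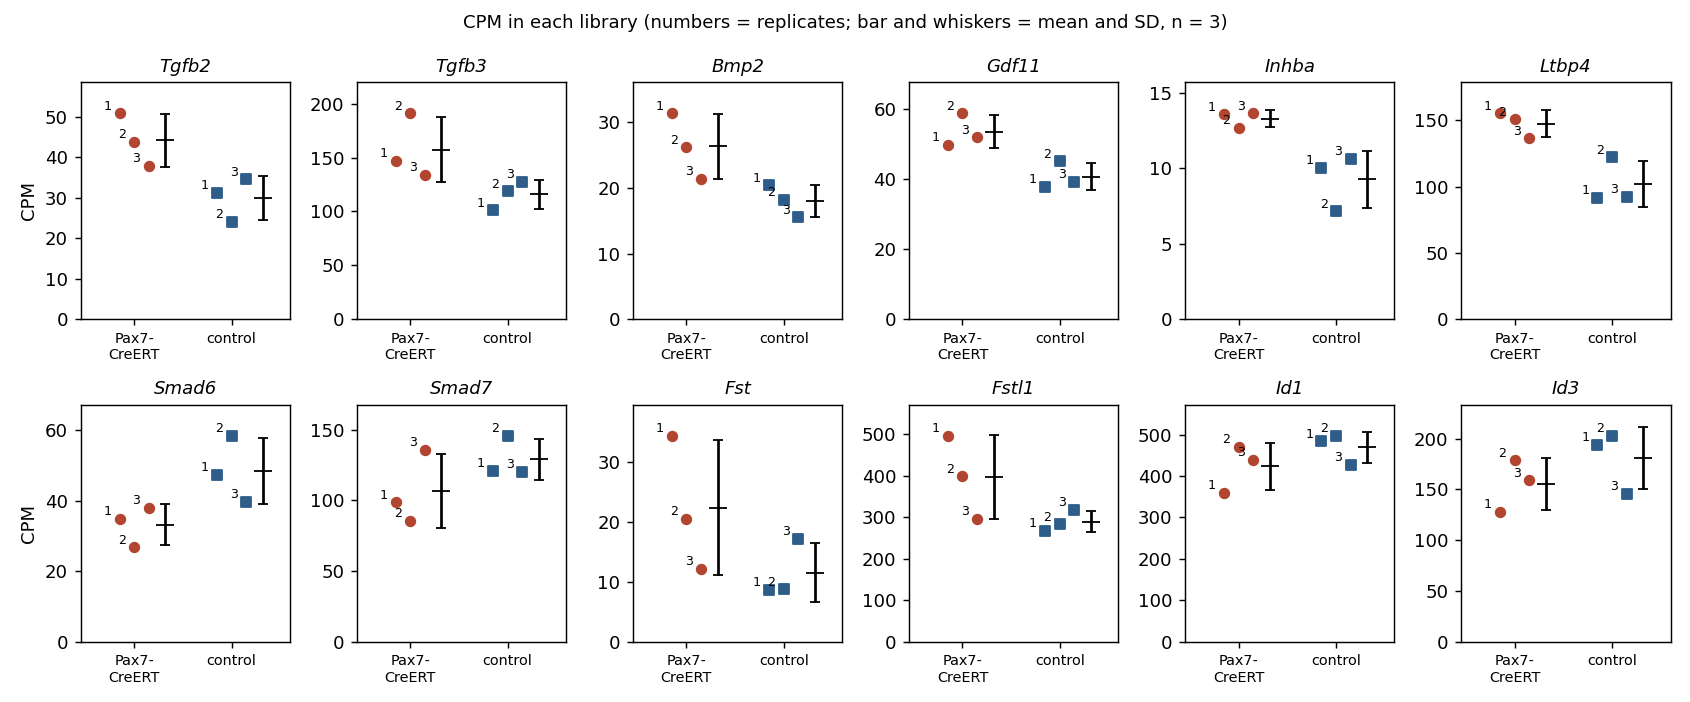
CPM of 12 members in each library (circles Pax7-CreERT, squares control, numbers give the replicate, bar and whiskers give the mean and SD of 3 mice). In the upper row the groups do not overlap for any of the 6 genes. In the lower row they are separate for Smad6 and overlap for the other 5.

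Receptors had higher and lower means in like numbers. Of 12 tested receptors and co-receptors 7 were higher and 5 lower, with a median difference of 0.04, and 0 had an unadjusted p under 0.05. With median-ratio scaling 2 of 6 type I receptors, 1 of 4 type II receptors and 1 of 2 co-receptors were higher. All 12 lay between -0.17 (Acvrl1) and 0.34 (Bmpr1a). Tgfbr1, the type I receptor gene for TGF-beta, measured 137, 129 and 142 CPM with Cre and 142, 158 and 150.5 CPM without. It had the smallest spread within groups of any tested member, an SD of 0.07 on the log2 scale, and its difference was -0.14 (SE 0.12, 95% interval -0.40 to 0.13, unadjusted p = 0.281). That interval holds changes from 0.757-fold to 1.09-fold. Tgfbr2, its type II partner, measured 354, 295 and 271 CPM with Cre and 243, 276 and 352 CPM without, and its difference of 0.09 (SE 0.17, unadjusted p = 0.618) turned to -0.0064 with median-ratio scaling.

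In the BMP receptor complex of endothelium, Bmpr2 measured 879.6, 886 and 1107 CPM with Cre and 1013, 1244 and 911 CPM without. Acvrl1, the type I kinase gene also known as ALK1, measured 209, 205 and 236 CPM with Cre and 218, 261 and 255 CPM without. Eng measured 245, 248 and 254 CPM with Cre and 244, 331 and 192 CPM without. For all 3 the highest library was control replicate 2 and the groups overlapped. The order of the libraries in Acvrl1 and in Tgfbr1 was that of the summed neutrophil markers, shared by 2 of 50 members (4%) and 10 of all tested genes (0.0677%). These 8 markers summed to 75.2, 52.04 and 89.1 CPM with Cre and 75.4, 96.7 and 93.7 CPM without, with Ly6g, Elane and Camp at 0 in at least 1 library and lower means in 4 of the 4 tested. S100a9, the largest of the 8, measured 36.3, 28.7 and 49.9 CPM with Cre and 46.1, 57.3 and 50.6 CPM without. It had the order of the sum, and S100a8 and Cxcr2 did not. The part of neutrophil content in the receptor values was not tested. Such orders were compared for every marker list. Members also matched the fibro-adipogenic progenitor, pericyte and smooth muscle, and myofibre lists. Smad1 matched the Schwann cell list, as did 98 of all tested genes (0.664%). No member matched the satellite cell, endothelial, macrophage, T and NK cell, B cell, tenocyte, adipocyte or erythroid list. In the complex, the differences were -0.14 (SE 0.18, unadjusted p = 0.466) for Bmpr2, -0.17 (SE 0.13, unadjusted p = 0.218) for Acvrl1 and -0.0018 (SE 0.19, unadjusted p = 0.992) for Eng, and that of Eng moved to 0.20 when control replicate 2 was left out and to -0.19 when control replicate 3 was. Tgfbr3, the co-receptor betaglycan, measured 372, 349 and 261 CPM with Cre and 311, 280.1 and 259 CPM without, with a difference of 0.20 (SE 0.16, unadjusted p = 0.257). Bmpr1a, a type I receptor gene for BMPs, was the 1 receptor without overlap. It measured 87.5, 74.1 and 76.7 CPM with Cre and 69.4, 71.8 and 49.1 CPM without, with a difference of 0.34 (SE 0.17, unadjusted p = 0.0700). The order of its libraries was that of the summed myofibre genes, shared by 63 of all tested genes (0.427%), and their part in the difference was not tested. Bmpr1a was named after its values were seen.

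Some proteins of the latent binding family tether TGF-beta to the matrix in an inactive form. All 4 genes of the family had higher means in the Pax7-CreERT mice, with a median difference of 0.40. Without Pax7-CreERT replicate 1 they were 3 of 4. Ltbp4, a component of elastic fibres that modifies muscular dystrophy in mice (chromosome 7, 27305141 to 27337612), measured 155, 151 and 136 CPM with Cre and 91.4, 122 and 92.3 CPM without. The groups did not overlap, with means of 147 ± 9.88 against 102 ± 17.5 CPM (SD, n = 3 each), 1.45-fold, and a difference of 0.54 (SE 0.15, 95% interval 0.21 to 0.87, unadjusted p = 0.00433). This was the smallest p of the 50 members, and its difference stayed between 0.44 and 0.68 under the 15 alternatives, with unadjusted p from 0.00102 to 0.0208. Ltbp1 measured 161, 105 and 102 CPM with Cre and 98.8, 96.2 and 104 CPM without. Its high library was Pax7-CreERT replicate 1 alone, and the difference of 0.27 (SE 0.18, unadjusted p = 0.160) was 0.06 without it. Ltbp2 was near the limit of counting at 2.63, 1.35 and 3.26 CPM with Cre and 0.167, 0 and 2.47 CPM without. Control replicate 2, listed at 0, could hold up to 0.404 CPM, the level of 3 reads there, and control replicate 3 lay among the Pax7-CreERT values. Ltbp2 was also named after its values were seen.

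Secreted antagonists gave no single direction, with 2 higher and 2 lower of 4. Fst encodes follistatin, which traps activin and myostatin (chromosome 13, 114452262 to 114458951). Follistatin transcripts reached 34.5, 20.6 and 12.2 CPM with Cre and 8.69, 8.76 and 17.3 CPM without. Control replicate 3 lay above Pax7-CreERT replicate 3, so the groups overlapped, and the difference of 0.85 (SE 0.36, 95% interval 0.05 to 1.65, unadjusted p = 0.0398) was 0.49 without Pax7-CreERT replicate 1 and 1.21 without replicate 3. Fstl1 (chromosome 16, 37777055 to 37836516) measured 496, 398 and 295 CPM with Cre and 267, 283 and 317 CPM without, with a difference of 0.43 (SE 0.19, 95% interval 0.01 to 0.85, unadjusted p = 0.0472). Its controls were closely grouped, and Pax7-CreERT replicate 3 fell among them. Fstl3, a follistatin-like inhibitor of activin and myostatin, measured 13.05, 13.7 and 17.2 CPM with Cre and 15.3, 20.6 and 20.2 CPM without, with a difference of -0.33 (SE 0.19, unadjusted p = 0.105). Nog, the BMP antagonist noggin, was faint at 2.21, 1.42 and 1.22 CPM with Cre and 2.01, 1.89 and 4.69 CPM without, with a difference of -0.51 (SE 0.32, unadjusted p = 0.151), and its highest library was control replicate 3.

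Fst and Fstl1 ran parallel to the summed markers of fibro-adipogenic progenitors, which are interstitial cells that lay down matrix and fat in muscle. The 8 markers (Pdgfra, Dpt, Lum, Mfap5, Pi16, Clec3b, Smoc2 and Col3a1), all detected in every library, summed to 1971, 1161 and 681 CPM in Pax7-CreERT replicates 1, 2 and 3 and to 629, 630 and 969 CPM in the controls. All 8 had higher means in the Pax7-CreERT mice. From high to low, the order of the 6 libraries in this sum was the order in Fst and in Fstl1. It was the order of 2 of the 50 tested members (4%) and of 29 of 14763 genes (0.196%). Among the single markers only Col3a1, the largest in every library, had this order. Col3a1 measured 815, 535 and 189 CPM with Cre and 149, 187 and 234 CPM without. In Pdgfra, Dpt, Mfap5 and Pi16, control replicate 3 lay above Pax7-CreERT replicate 2. The part of these cells in either difference was not tested.

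**Figure D4:**
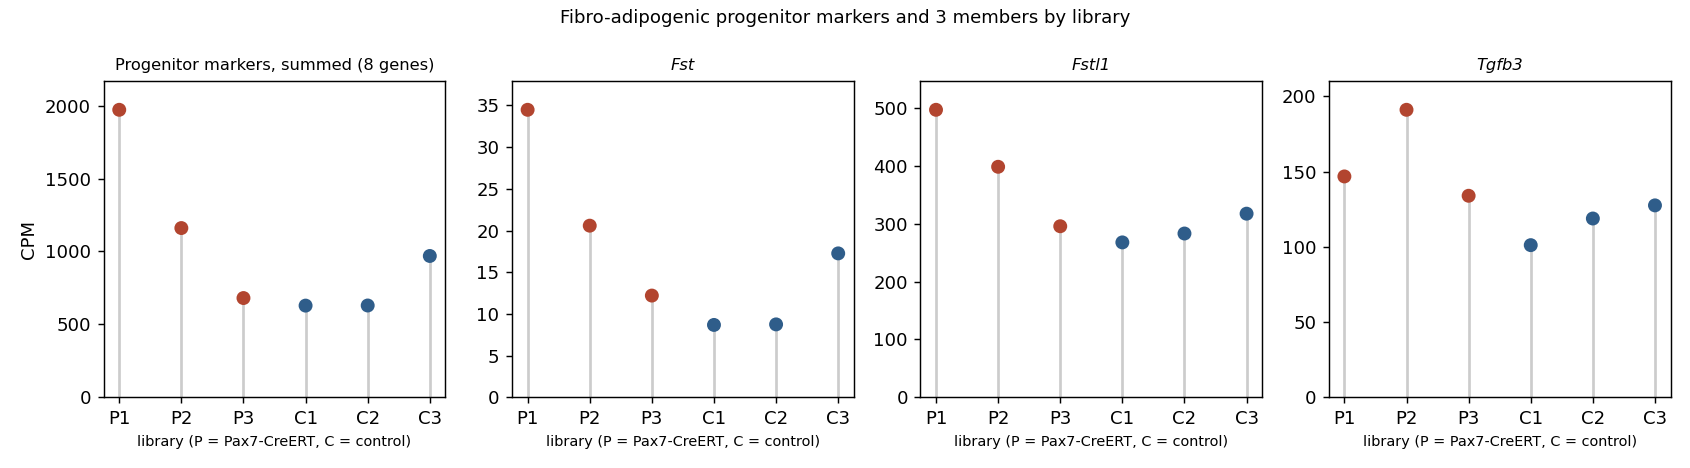
Summed CPM of 8 progenitor markers and CPM of Fst, Fstl1 and Tgfb3 in each library (P1 to P3 are Pax7-CreERT replicates, C1 to C3 controls). Fst and Fstl1 follow the order of the marker sum from P1 at the top, then P2, C3, P3, C2 and C1, and Tgfb3 does not.

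Among the signal-carrying Smads 4 of 6 were higher and 2 lower, and 0 had an unadjusted p under 0.05. With median-ratio scaling 3 of 6 were higher. Smad4, the shared partner, measured 163, 154 and 166 CPM with Cre and 171, 166 and 124 CPM without, and Smad5, of the BMP branch, 161, 165 and 150.0 CPM with Cre and 169.5, 149 and 112 CPM without. In both, control replicate 3 was lowest and the groups overlapped. Their differences were 0.08 (SE 0.15, unadjusted p = 0.598) and 0.16 (SE 0.16, unadjusted p = 0.332), and without control replicate 3 they were -0.07 and -0.0036. Smad9, also of the BMP branch, was faint at 3.57, 1.797 and 2.24 CPM with Cre and 3.51, 5.52 and 3.45 CPM without, with a difference of -0.55 (SE 0.28, unadjusted p = 0.0756).

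Among the members, the 2 inhibitory Smads and the 3 Id genes, known targets of the BMP branch, had lower means in the Pax7-CreERT mice. All 5 kept that direction with median-ratio scaling, quantile normalization and CPM without haemoglobin genes. Target genes outside the rule lay on both sides, with 9 of 12 higher. Id4, the remaining Id gene, measured 38.5, 46.1 and 38.3 CPM with Cre and 42.1, 30.3 and 30.3 CPM without, with a difference of 0.26 (SE 0.17, unadjusted p = 0.149). Msx1, a homeobox gene, measured 24.7, 23.5 and 26.5 CPM with Cre and 21.6, 24.3 and 14.5 CPM without, with a difference of 0.32 (SE 0.20, unadjusted p = 0.136). Runx2, a transcription factor gene of bone, had a difference of 0.65 (SE 0.25, unadjusted p = 0.0278), and Atoh8, also a BMP target, had one of -0.29. Id4, Msx1 and Runx2 were named after their values were seen. Among the members, Id2 turned to 0.10 without Pax7-CreERT replicate 2 and to 0.10 without control replicate 2. Smad6 inhibits mainly BMP receptors (chromosome 9, 63953076 to 64022059) and holds the palindrome printed above across its start. Its level was 34.8, 26.8 and 38.1 CPM with Cre and 47.3, 58.5 and 39.7 CPM without. The highest Pax7-CreERT library lay just below the lowest control. The means were 33.2 ± 5.79 against 48.5 ± 9.43 CPM (SD, n = 3 each), 1.46-fold lower, with a difference of -0.53 (SE 0.18, 95% interval -0.94 to -0.12, unadjusted p = 0.0169). It lay between -0.70 and -0.39 under the 15 alternatives, with unadjusted p from 0.00221 to 0.0778. Smad7, which inhibits both branches, measured 98.6, 85.7 and 136 CPM with Cre and 121, 146 and 120.4 CPM without. Pax7-CreERT replicate 3 lay among the controls, and the difference was -0.29 (SE 0.18, 95% interval -0.69 to 0.10, unadjusted p = 0.128).

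Id1 (chromosome 2, 152736251 to 152737410) measured 359.96, 470.4 and 439 CPM with Cre and 483, 497 and 427 CPM without. Pax7-CreERT replicate 1 was its lowest library, the other 5 lay within 427 to 497 CPM, and the difference was -0.16 (SE 0.15, 95% interval -0.49 to 0.18, unadjusted p = 0.327). Id3 (chromosome 4, 136143822 to 136145392), whose start region holds 2 CAGAC cores, measured 128, 179 and 159 CPM with Cre and 194, 203 and 146 CPM without. Its groups overlapped, with a difference of -0.22 (SE 0.17, 95% interval -0.60 to 0.17, unadjusted p = 0.232), and without Pax7-CreERT replicate 1 it was -0.09. Id2 measured 40.4, 32.4 and 45.6 CPM with Cre and 37.9, 48.4 and 35.03 CPM without, with a difference of -0.03 (SE 0.18, unadjusted p = 0.846). These 3 genes and both inhibitory Smads were each highest in control replicate 2, as were Bmpr2, Acvrl1, Eng and the summed endothelial markers, at 6299 CPM. Of the 8 endothelial markers, 6 were higher in the Pax7-CreERT mice on the log2(CPM + 1) scale and 2 lower. The full order of the libraries in the endothelial sum was shared by 0 members and by 34 of all tested genes (0.23%). Whether endothelial content took part in these values was not tested.

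Libraries of the same genotype differed among themselves in these genes. Of the 50, 16 (32%) were highest in Pax7-CreERT replicate 1, where 20.4% of all tested genes were highest. These included Tgfb2, Bmp2, Bmp5, Fst, Fstl1, Ltbp1, Ltbp3, Ltbp4, Smad3 and Tgfbr3. Another 16 (32%) were highest in control replicate 2, against 13.6% of all genes, and these included 6 receptors or co-receptors, Smad6, Smad7, Smad9 and the 3 Id genes. In Pax7-CreERT replicate 3 the count was 2, Inhba and Ltbp2. Control replicate 3 was lowest for 14 members (28%) and for 39.8% of all genes. The spread within groups had a median SD of 0.25 on the log2 scale for the members and 0.23 for all genes, and among the members it was widest in Ltbp2 at 0.76.

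**Figure D5:**
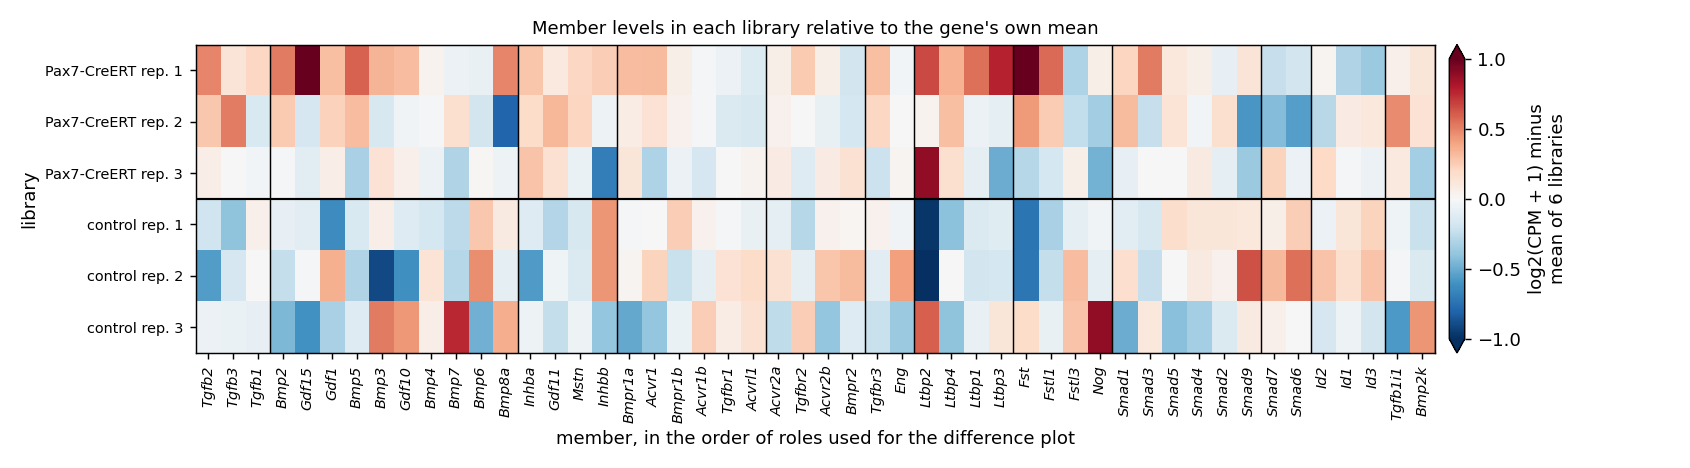
Each tested member's log2(CPM + 1) in each library minus its mean over the 6 libraries, members in columns by role and libraries in rows, with colours capped at -1 and 1. Pax7-CreERT replicate 1 is high for Tgfb2, Bmp5, Fst and Ltbp1, and control replicate 2 for Bmpr2, Eng, the inhibitory Smads and the Id genes.

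Both matches outside the family were also tested. Tgfb1i1 measured 29.02, 39.4 and 30.1 CPM with Cre and 27.2, 27.9 and 18.5 CPM without. The groups did not overlap, with a difference of 0.42 (SE 0.20, unadjusted p = 0.0603). The order of its libraries was that of the summed pericyte and smooth muscle markers, shared by 60 of all tested genes (0.406%), and their part in the difference was not tested. Bmp2k measured 39.8, 40.5 and 28.5 CPM with Cre and 31.2, 32.95 and 49.8 CPM without, with a difference of -0.05 (SE 0.21, unadjusted p = 0.814), and without control replicate 3 it was 0.16.

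The other genes of the pathway came from a list of modulators, activators, regulators and targets outside the rule, of which 77 were in the table and 70 were tested. In limma 0 passed at an adjusted p under 0.05. At an unadjusted p under 0.05 stood 6, or 8.57% of those tested against the 5.52% of all genes. Of these, 6 were higher (4.58% of all genes) and 0 lower (0.942%). Positive differences on the log2(CPM + 1) scale were found in 58 of 70, or 82.9%, against 68.0% of all genes. The median difference was 0.15, against 0.09 for all genes. With median-ratio scaling 46 of 70 were higher, against 50.5% of all genes. Fbn1, the microfibril gene whose protein holds latent TGF-beta, measured 421, 275 and 145 CPM with Cre and 130.4, 115 and 149 CPM without, with a difference of 0.96 (SE 0.31, unadjusted p = 0.0118). Its high libraries were Pax7-CreERT replicates 1 and 2, those with the highest progenitor marker sums, and replicate 3 lay among the controls. Thbs1, an activator of latent TGF-beta, measured 362, 228 and 248 CPM with Cre and 267, 213 and 199 CPM without, with a difference of 0.28 (SE 0.19, unadjusted p = 0.170).

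Target genes of both branches were read in the same list. Ccn2, the connective tissue growth factor gene, measured 221, 248 and 142 CPM with Cre and 189, 122 and 137 CPM without. Its groups overlapped, with a difference of 0.43 (SE 0.23, unadjusted p = 0.0895). Atoh8, a transcription factor gene induced by BMP in endothelium, measured 64.8, 67.7 and 51.3 CPM with Cre and 52.7, 91.2 and 85.6 CPM without, with a difference of -0.29 (SE 0.21, unadjusted p = 0.203). Pax7-CreERT replicates 1 and 2 lay within the range of the controls and replicate 3 just below it.

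BMP co-receptors and modulators included Rgma, the 1 gene named here with an unadjusted p under 0.05. Rgma, a BMP co-receptor of the repulsive guidance family, measured 23.1, 17.3 and 25.6 CPM with Cre and 13.5, 17.5 and 13.3 CPM without, with a difference of 0.54 (SE 0.19, unadjusted p = 0.0202). Its relative Rgmb measured 144 ± 2.16 against 126 ± 27.3 CPM (SD, n = 3 each), with a difference of 0.21 (SE 0.16, unadjusted p = 0.221). Chrd, the BMP antagonist chordin, was faint at 1.55 ± 0.6604 against 2.301 ± 0.828 CPM, with a difference of -0.37 (SE 0.31, unadjusted p = 0.261). Dcn, the proteoglycan decorin that binds TGF-beta, measured 2486, 1235 and 1358 CPM with Cre and 1445, 1291 and 2545 CPM without. It was high in 1 library of each group and its difference was -0.06 (SE 0.32, unadjusted p = 0.851). The deubiquitinases Usp15 and Usp9x, which act on receptors and Smad4, measured 80.7 ± 3.305 against 89.5 ± 6.47 CPM and 319 ± 16.03 against 281 ± 45.5 CPM, with differences of -0.15 (SE 0.12, unadjusted p = 0.258) and 0.19 (SE 0.15, unadjusted p = 0.226).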

How the data were processed

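Total RNA of mononuclear cells from muscle of 6 mice was extracted with Trizol and made into libraries with the SureSelect strand-specific kit, per the labels' protocols. Genotype labels gave 2 groups of 3. The authors deposited CPM values with 0.0001 added to each, as read from the values, since each library sums to 1000000 plus the constant. Partek, DESeq2 and build mm10 are named in the submitters' processing notes, without roles. The aligner, counting rule and annotation are not given in the sources used here.

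The constant was subtracted. Depth was taken from the smallest repeated step between low values. Of values up to 20 reads, 92.8% to 93.9% were whole within 0.05 read, so whole reads were not recovered. At 10 CPM the counting SD was 8.65% to 15.7% per library. Gene ends are the deposited ones minus 1, and 41 member starts and 42 ends equal RefSeq's.

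limma 3.58.1 (R 4.3.3) was run on log2(CPM + 1) with a mean-variance trend, for genes reaching 1 CPM in 3 or more libraries, with Benjamini-Hochberg adjustment over 14763 genes. The offset of 1 CPM shrinks fold changes of faint genes. The code was tested on simulated data. P-values measure the spread between these 3 mice a group. Start regions and motifs were read with Python 3.11.15. No protein sequence was used here.

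Members and lists were chosen with earlier results of these data known. Genes named with values were the 6 members of smallest p in each direction, the 2 with the most reads in each role, and of the other pathway genes the 3 of smallest p in each direction and the 1 with the most reads in each sub-list; 1 gene so chosen is not reported here. Tgfb1, Id2, Mstn, Bmpr1a and Ltbp2 among the members, and Id4, Msx1, Itgb8, Runx2, Ldlrad4, Fbxo32, Trim63 and Fbxo30, were named after their values were seen. Alternatives changed the offset, filter, scaling, weights or libraries.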

Additional observations from a re-analysis of the deposited data

How the results depend on the processing

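No paired analysis was possible because the replicate numbers follow record order and the labels give no pairing. No member or other pathway gene passed under the 15 alternatives. All genes passing numbered 2 with no filter, 2 with Pax7-CreERT replicate 1 and control replicate 3 both left out, and 0 to 1 when leaving out 1 library. Members at an unadjusted p under 0.05 numbered 6 with median-ratio scaling (4.58% of all genes), 6 without haemoglobin genes (5.02%) and 3 to 14 when leaving out 1 library (3.001% to 6.92%). The members' median difference was 0.0030 with median-ratio scaling, 0.021 with quantile normalization, -0.017 without both libraries and 0.019 to 0.14 when leaving out 1. For other pathway genes it was 0.041 without both libraries and 0.09 to 0.19 when leaving out 1. Changes of sign were followed in Ikbkb and most named genes, without Tgfb1, Id4 and Msx1, and not in the remaining genes. With median-ratio scaling the members with higher values fell from 30 to 25 of the 50 tested. In the genes followed, changes of sign numbered 31. They were counted as pairs of a gene and an alternative, so the same gene can count more than once. With median-ratio scaling these were Tgfbr2 at -0.0064 and Smad4 at -0.013, with quantile normalization Trim63 at -0.032, and with array weights Smad4 at -0.016, Bmp2k at 0.11 and Dcn at 0.18. Without both libraries they were Smad4 at -0.076, Smad5 at -0.015, Bmp2k at 0.083, Thbs1 at -0.0033, Fbxo32 at -0.064, Trim63 at -0.30 and Fbxo30 at -0.088. Leaving out 1 library gave ranges of -0.094 to 0.021 for Ikbkb, -0.031 to 0.23 for Tgfbr2, -0.19 to 0.20 for Eng, -0.38 to 0.24 for Dcn, -0.14 to 0.10 for Id2, -0.17 to 0.16 for Bmp2k, -0.45 to 0.025 for Bmp6, -0.067 to 0.16 for Smad4, -0.0036 to 0.29 for Smad5, -0.28 to 0.33 for Trim63 and -0.029 to 0.52 for Fbxo30. The causes were not tested. At 4.05 to 13.4 reads per CPM, Ltbp2, Nog and the untested members rest on few reads.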

Other observations

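Some pathway genes outside the naming rule were read after their values were seen. Itgb8, Runx2 and Ldlrad4 were among the 6 other pathway genes with an unadjusted p under 0.05. Itgb8, an integrin subunit that activates latent TGF-beta, measured 5.78, 7.34 and 7.53 CPM with Cre and 4.68, 4.45 and 1.23 CPM without. The groups did not overlap, and the difference was 0.93 (SE 0.35, unadjusted p = 0.0239). Without control replicate 3, the lowest library of Itgb8, the difference was 0.50. Runx2 measured 6.097, 4.19 and 6.11 CPM with Cre and 2.17, 3.503 and 3.7005 CPM without. Its groups were also separate, with a difference of 0.65 (SE 0.25, unadjusted p = 0.0278). Ldlrad4, an inhibitor of TGF-beta signalling, measured 77.2, 78.5 and 58.8 CPM with Cre and 63.7, 51.9 and 41.9 CPM without. Its groups overlapped, with a difference of 0.45 (SE 0.18, unadjusted p = 0.0331). In limma all 3 had an adjusted p of 0.891.

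The ubiquitin ligase genes of muscle atrophy, which activin and myostatin signalling and loss of BMP signalling are known to raise in fibres, had differences of 0.08 to 0.30. Fbxo32 (atrogin-1) measured 90.8, 72.1 and 66.8 CPM with Cre and 70.2, 75.04 and 45.4 CPM without, with a difference of 0.29 (SE 0.20, unadjusted p = 0.187). Trim63 (MuRF1) measured 6.52, 2.92 and 2.24 CPM with Cre and 3.01, 3.77 and 3.21 CPM without, with Pax7-CreERT replicate 1 highest and a difference of 0.08 (SE 0.32, unadjusted p = 0.803). Fbxo30 measured 155 ± 14.4 against 132 ± 47.8 CPM (SD, n = 3 each), with a difference of 0.30 (SE 0.25, unadjusted p = 0.255). Mature myofibre markers, of which 10 of 10 were higher, were also highest in Pax7-CreERT replicate 1, at a sum of 2688 CPM, and lowest in control replicate 3, at 922 CPM. Their part in these values was not tested.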
